A study of Mus musculus with 4 samples.

Results

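Interleukin receptor genes were compared between CLP_RAGhigh and CLP_RAGlow cells, a pair of subpopulations of the common lymphoid progenitor (CLP) of mouse bone marrow. The genes were taken by name. They were the genes measured by the array whose symbol starts with Il, a number and r or st, without Il7r, Il2rg and Il1rn, and they came to 35 of the 18193 genes compared. Receptors of the same families that did not enter in this way, namely Il11ra1, Il11ra2, Il23r, Il1rl1 and Il17rel, were not analysed here.

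There were 4 Affymetrix MOE430_2 arrays, 2 for each group, and each array was made from 2000 sorted cells of C57Bl6 mice aged 8 to 12 weeks. The sample descriptions call the sorted fractions CLPGFPhigh and CLPGFPlow, and the titles call them CLP_RAGhigh and CLP_RAGlow. What the GFP reporter is, or whether other alleles or treatments were present, the labels do not say. They call the replicates biological and do not say whether animals were pooled, so any p-value here measures the spread between these 4 samples and nothing wider.

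An interleukin receptor is built from several chains, some of which serve only 1 ligand while others are shared by a family. Class I and class II cytokine receptors signal through JAK kinases and STAT transcription factors, the interleukin-1 family through the adaptor MyD88, and the interleukin-17 family through the adaptor Act1. In the CLP the best known of these receptors is the one for interleukin-7, which B-cell development in mouse bone marrow depends on.

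Median array intensities lay between 14.5 and 14.8, after RMA, which normalizes between arrays. The mean intensity of the hybridisation control probe sets was 5543 on CLP_RAGhigh replicate 2 and 3557 to 3817 on the other arrays. With 2 arrays a group each value is of limited precision. Of the 7 markers listed for the CLP, 6 were measured (Il7r, Flt3, Kit, Cd27, Dntt and Notch1), and their log2 intensities ran from 7.42 to 13.50 over all arrays, above the median of all probe sets, 3.88. The 6 measured T-cell markers ran from 2.16 to 5.12. Of the 11 measured neutrophil and monocyte markers, 7 were higher by mean in CLP_RAGhigh and 4 lower, with 1 separate each way. S100a8 was at 3.81 on CLP_RAGlow replicate 2 and at 9.60 to 10.15 on the other arrays, while Mpo was highest on that array, at 11.03. Csf1r, the 1 marker of this list under a limma p of 0.05 before adjustment, was lower in CLP_RAGhigh, at 6.79 and 8.26 against 9.31 and 9.54, a difference of -1.90 ± 0.52 (SE, n = 2 per group; limma adjusted p = 0.799). Its other 2 probe sets were at -1.59 and -0.26. The summed linear intensity of that list was 4192 and 4412 on the CLP_RAGhigh arrays and 6096 and 3197 on the CLP_RAGlow arrays. For Actb the 3′ probe set over the 5′ one, a measure of RNA length, was 16.2 and 9.62 in CLP_RAGhigh and 13.5 and 24.5 in CLP_RAGlow. The part of these measures in the results below was not tested.

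The interleukin receptor genes had no common direction. By group mean, 16 of the 35 genes (45.7%) were higher in CLP_RAGhigh, against 50.6% of all genes, and 19 were lower. Their median log2 difference, CLP_RAGhigh minus CLP_RAGlow, was -0.08, and that of all genes 0.0028. With limma 0 of the 35 passed at an adjusted p under 0.05, as did 0% of all 18193 genes, so none of the differences below is a call. In bulk samples, fewer cells that carry a transcript and less transcript per cell cannot be told apart.

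Before adjustment, limma p was under 0.05 for 2 of the genes (5.71%) toward CLP_RAGhigh, Il27ra and Il2ra, against 2.35% of all genes, and for 3 (8.57%) toward CLP_RAGlow, Il17rb, Il1r1 and Il17re, against 2.94% of all genes. Arrays are called separate where those of the groups do not overlap. They were separate with CLP_RAGhigh above for 5 genes (14.3%), against 15.4% of all genes, and with CLP_RAGhigh below for 10 genes (28.6%), against 15.8% of all genes. For 11 of the 35 genes (31.4%) the difference between the group means was larger than the wider of the gaps between replicates, against 20% of all genes.

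**Figure D1:**
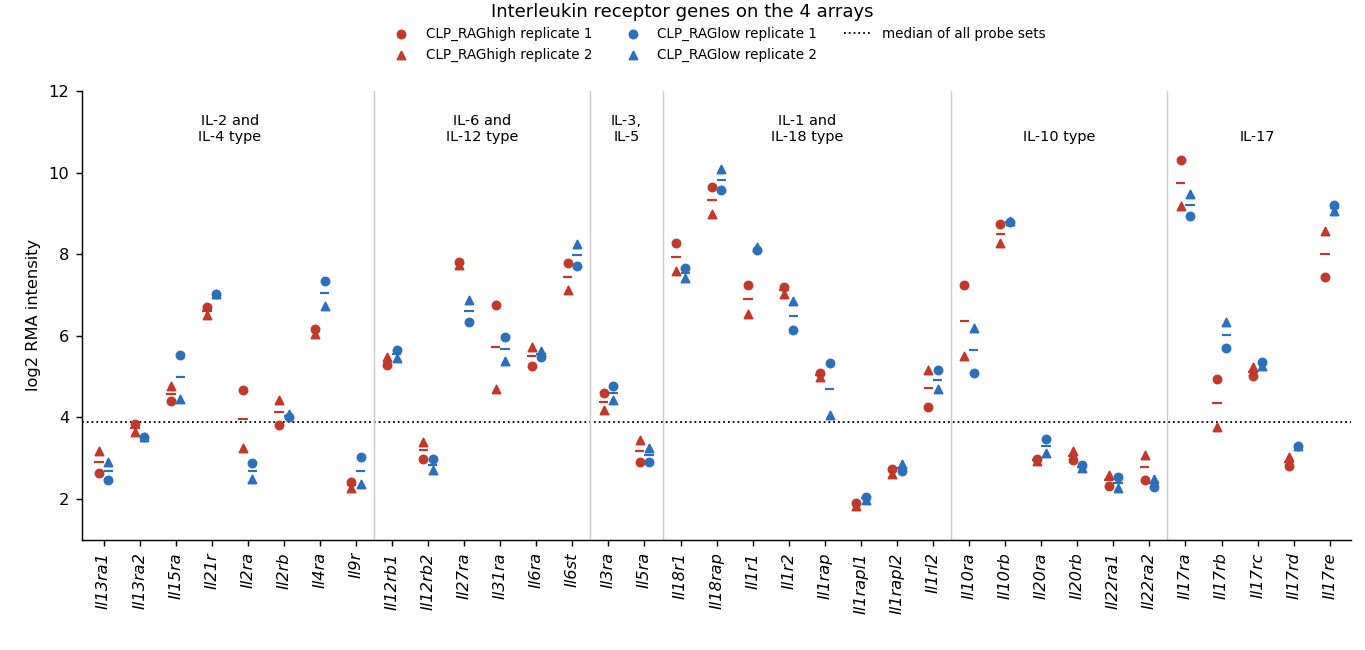
Log2 RMA intensity (vertical axis) of the 35 interleukin receptor genes on each of the 4 arrays, in order of receptor family. Red marks are CLP_RAGhigh, blue marks CLP_RAGlow, circles replicate 1, triangles replicate 2, short bars the group means of 2 arrays, and the dotted line the median of all probe sets at 3.88. Il27ra, Il1r1, Il17rb and Il4ra have separate groups, while for Il31ra and Il10ra the replicates of CLP_RAGhigh lie further apart than the group means. Heights of different genes depend on their probes and are not comparable.

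Brightness differed widely between genes. For 12 of the 35 genes (34.3%), against 34.5% of all genes, both group means were under the median of all probe sets. Log2 values of these 12 genes ran from 1.81 to 3.83 over all arrays. These were Il13ra1, Il13ra2, Il9r, Il12rb2, Il5ra, Il1rapl1, Il1rapl2, Il20ra, Il20rb, Il22ra1, Il22ra2 and Il17rd. At such levels RMA values do not separate weak expression from background. Their differences lay between -0.37 and 0.38, and between -0.08 and 0.07 after adding an offset of 32 to the linear values. At the other end, 7 of the 35 genes had both group means at least 3 log2 units above that median, against 28.7% of all genes. The 7 were Il6st, Il18r1, Il18rap, Il1r1, Il10rb, Il17ra and Il17re.

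**Figure D2:**
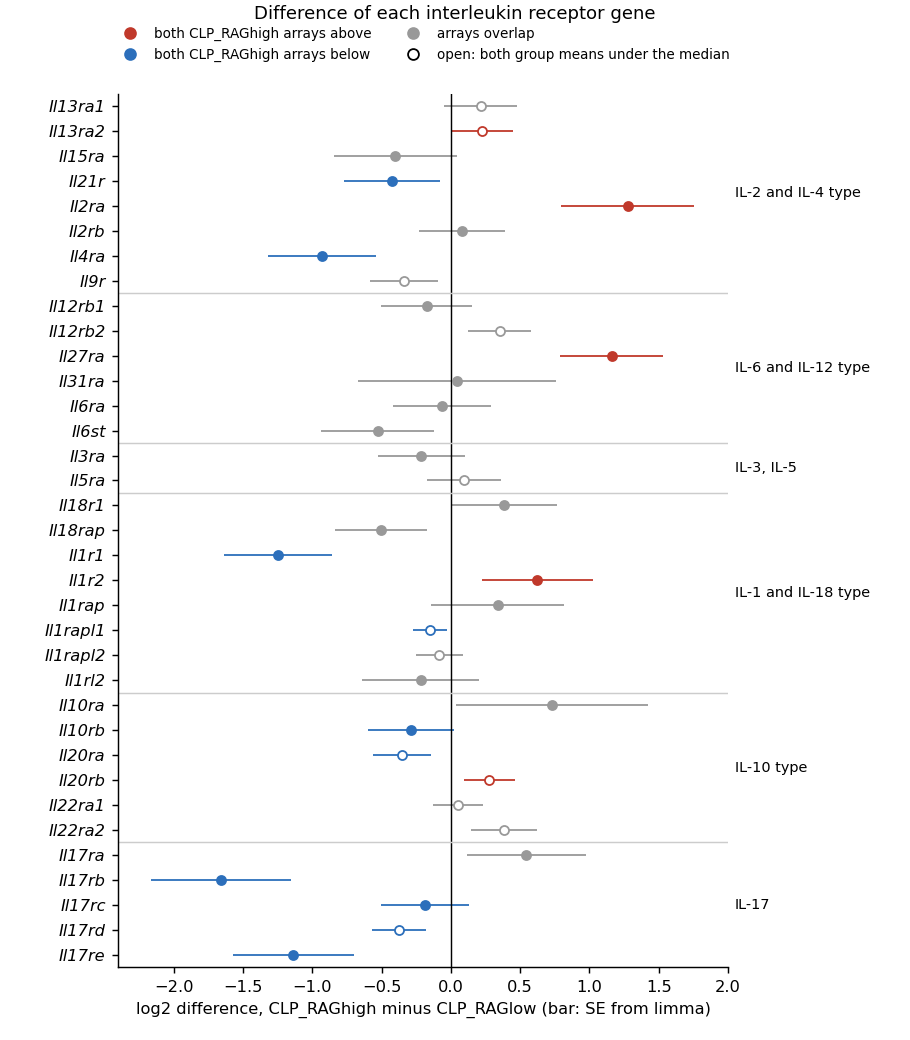
Log2 difference between the group means (horizontal axis, CLP_RAGhigh minus CLP_RAGlow, bars are the SE from limma, 2 arrays per group) for the 35 genes by family. Red marks have both CLP_RAGhigh arrays above both CLP_RAGlow arrays (5 genes), blue marks have them below (10 genes), grey marks overlap (20 genes), and open marks have both group means under the median of all probe sets. In the interleukin-17 family 4 of 5 genes are blue, 1 of them with an open mark, and 15.8% of all genes are separate in that direction.

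Of the 5 interleukin-17 receptor chains, 4 were lower by mean in CLP_RAGhigh with separate arrays (Il17rb, Il17rc, Il17rd and Il17re), and Il17ra was higher by mean. Over all genes, 15.8% were separate in the lower direction. The arrays of Il17rc nearly met, at 5.22 on CLP_RAGhigh replicate 2 and 5.24 on CLP_RAGlow replicate 2. Il17rd was dim in both groups, and its second probe set was at 0.10. The median difference of the 5 was -0.37.

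Il17rb encodes the chain that binds interleukin-25, with Il17ra as its partner. Its log2 intensity was 4.94 in replicate 1 and 3.75 in replicate 2 of CLP_RAGhigh, and 5.69 and 6.32 in those of CLP_RAGlow. Both CLP_RAGhigh arrays were below both CLP_RAGlow arrays, and replicate 2 of CLP_RAGhigh was the lowest. The group means were 4.34 ± 0.84 and 6.0 ± 0.45 (SD, n = 2 each), a log2 difference of -1.66 ± 0.50 (SE), or 3.16-fold lower in CLP_RAGhigh, the most negative of the 35 genes. The limma p adjusted over all genes was 0.838. With the offset of 32 the difference was -0.86, and without CLP_RAGhigh replicate 2 it was -1.07. The gene had 1 probe set. Mcpt8, a basophil marker, was at 3.21 and 2.90 in CLP_RAGhigh and 3.85 and 4.6 in CLP_RAGlow, so the 4 arrays came in the same order for both genes. Its difference was -1.17 ± 0.32 (limma adjusted p = 0.802), and only CLP_RAGlow replicate 2 was above the median of all probe sets. Mcpt8 is 1 of 9 measured markers of mast cells, basophils and eosinophils. Of these 9, 5 were higher by mean in CLP_RAGhigh and 4 lower. Arrays were separate for 2 above and 1 below, against 15.4% and 15.8% of all genes. The part of such cells in the Il17rb difference was not tested.

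Il17re encodes the chain for interleukin-17C, which also pairs with Il17ra. Its log2 intensity was 7.43 and 8.56 in CLP_RAGhigh and 9.20 and 9.07 in CLP_RAGlow. The CLP_RAGlow arrays lay close together and above both others, and the CLP_RAGhigh arrays lay 1.13 apart. The difference was -1.14 ± 0.44 (SE, n = 2 per group), with an adjusted limma p of 0.928. All 3 probe sets of the gene were lower in CLP_RAGhigh, at -1.14, -0.80 and -0.37. The brightest is of a kind marked as shared between transcripts, and without such probe sets the difference was -0.37. Without CLP_RAGhigh replicate 1 it was -0.57.

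Il17ra, the chain both receptors share, had log2 intensities of 10.30 and 9.18 in CLP_RAGhigh and 8.92 and 9.47 in CLP_RAGlow. The groups overlapped, with replicate 1 of CLP_RAGhigh the highest. The difference was 0.55 ± 0.43 (SE, n = 2 per group), and -0.01 without that array. The second probe set of the gene had a difference of 0.81. Il17rc, which joins Il17ra in the receptor for interleukin-17A and interleukin-17F, had a difference of -0.19 ± 0.32. Its 2 probe sets differed in direction, at -0.19 and 0.39.

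In the interleukin-1 family the differences of the signalling receptor and the decoy had opposite signs. By mean, 3 of 8 genes were higher in CLP_RAGhigh and 5 lower. The arrays were separate for 1 above and 2 below, against 15.4% and 15.8% of all genes. Il1r1 encodes the receptor that signals after binding interleukin-1. Its log2 intensity was 7.25 and 6.53 in CLP_RAGhigh and 8.09 and 8.18 in CLP_RAGlow. Both CLP_RAGlow arrays lay above both CLP_RAGhigh arrays and within 0.08 of each other. The difference was -1.25 ± 0.39 (SE, n = 2 per group), or 2.37-fold lower in CLP_RAGhigh, with an adjusted limma p of 0.858. It ran from -1.61 to -0.89 when 1 array was left out. The second probe set was dim on all arrays, at 1.52 to 2.13, with a difference of 0.16, so averaging the probe sets gave -0.54.

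Il1r2, the decoy receptor that binds interleukin-1 without signalling, had log2 intensities of 7.20 and 7.03 in CLP_RAGhigh and 6.14 and 6.84 in CLP_RAGlow. The CLP_RAGhigh arrays lay above both others, with replicate 1 of CLP_RAGlow the lowest. The difference was 0.62 ± 0.40 (SE, n = 2 per group; limma adjusted p = 0.981), and 0.27 without CLP_RAGlow replicate 1. Il1r2 is strongly expressed by neutrophils. S100a8, of the neutrophil and monocyte list, was at 10.15 on CLP_RAGlow replicate 1, where Il1r2 was lowest, and at 3.81 on CLP_RAGlow replicate 2. S100a9, Ltf, Camp, Ngp, Lyz2, Prtn3 and Itgam were also higher on replicate 1 than on replicate 2 of CLP_RAGlow. Mpo, Elane and Csf1r were higher on replicate 2, as Il1r2 was. The part of neutrophils in the Il1r2 difference was not tested. The co-receptor Il1rap had a difference of 0.34 ± 0.48, with overlapping arrays and 5 probe sets from -0.19 to 0.39.

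The chains of the interleukin-18 receptor were bright in both groups. Il18r1, the chain that binds the ligand, had log2 intensities of 8.26 and 7.58 in CLP_RAGhigh and 7.65 and 7.42 in CLP_RAGlow, and Il18rap, its signalling partner, 9.65 and 8.99 against 9.56 and 10.08. The arrays of the groups overlapped for both genes. The differences were 0.38 ± 0.38 and -0.50 ± 0.33 (SE, n = 2 per group), and neither passed. The remaining genes of the family lay between -0.22 (Il1rl2, of the interleukin-36 receptor) and -0.08 (Il1rapl2), with the dim Il1rapl1 at -0.15.

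**Figure D3:**
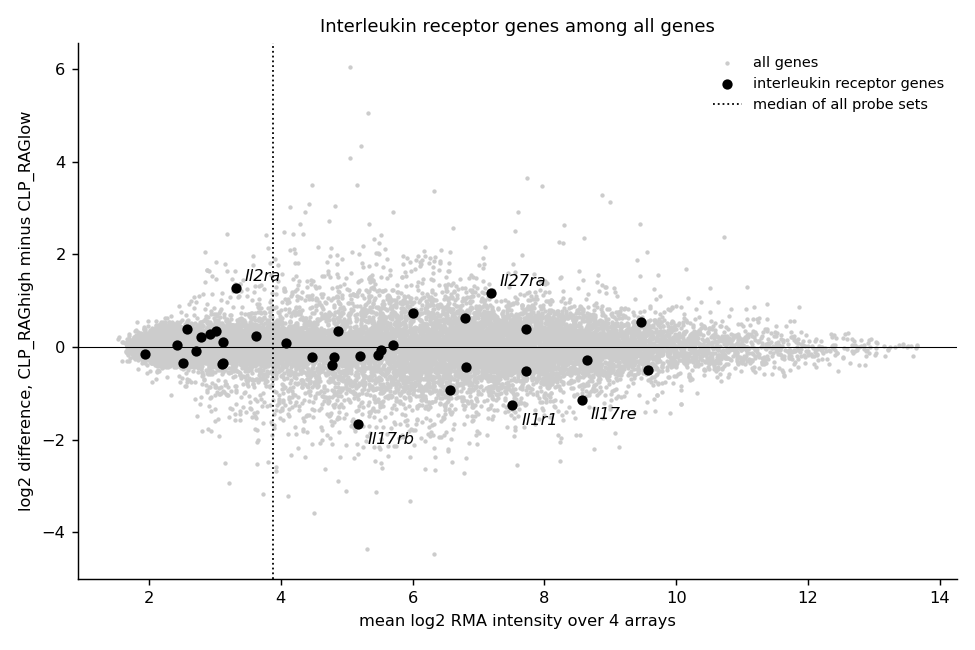
Log2 difference (vertical axis, CLP_RAGhigh minus CLP_RAGlow) against mean log2 RMA intensity over the 4 arrays (horizontal axis) for 18193 genes in grey and the 35 interleukin receptor genes in black. The 5 genes with an unadjusted limma p under 0.05 are named, and all 5 lie well inside the range of -4.48 to 6.04 spanned by all genes.

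Among class I receptors of the interleukin-6 and interleukin-12 type, 3 of 6 genes were higher by mean in CLP_RAGhigh and 3 were lower. Il27ra was the 1 gene of the 6 with separate arrays, against 15.4% of all genes above and 15.8% below. Il27ra encodes the chain that binds interleukin-27, with the shared chain gp130, encoded by Il6st, as its partner. Its log2 intensity was 7.80 and 7.73 in CLP_RAGhigh and 6.33 and 6.87 in CLP_RAGlow. The CLP_RAGhigh arrays lay within 0.06 of each other and above both CLP_RAGlow arrays. The difference was 1.16 ± 0.37 (SE, n = 2 per group), or 2.23-fold higher in CLP_RAGhigh, with an adjusted limma p of 0.869. It stayed between 0.89 and 1.43 when 1 array was left out and was 0.94 with the offset of 32. The gene had 1 probe set.

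Il6st had log2 intensities of 7.79 and 7.11 in CLP_RAGhigh and 7.72 and 8.24 in CLP_RAGlow, so the groups overlapped and CLP_RAGlow replicate 2 was the highest. The difference was -0.53 ± 0.41 (SE, n = 2 per group), and it ran from -0.87 to -0.19 when 1 array was left out. Its 4 probe sets ran from -0.87 to 0.09. The ligand chain that Il27ra binds together with the product of Il27 is encoded by Ebi3, which had log2 intensities of 8.16 and 7.08 in CLP_RAGhigh and 8.80 and 9.26 in CLP_RAGlow. Ebi3 thus differed the other way from Il27ra, at -1.41 ± 0.45 (limma adjusted p = 0.869). Il27 itself was not analysed here. Of the others, Il12rb1, the chain shared by the receptors for interleukin-12 and interleukin-23, was at -0.18 ± 0.33, Il6ra at -0.07 ± 0.35 and Il31ra at 0.05 ± 0.72.

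Genes of receptors that use the common gamma chain, or bind interleukin-4 or interleukin-13, were evenly divided. By mean, 4 of 8 genes were higher in CLP_RAGhigh and 4 lower. Arrays were separate for 2 above (Il2ra and Il13ra2) and 2 below (Il4ra and Il21r), against 15.4% and 15.8% of all genes. Il2ra encodes CD25, the chain that raises the affinity of the interleukin-2 receptor. Its log2 intensity was 4.67 and 3.24 in CLP_RAGhigh and 2.88 and 2.48 in CLP_RAGlow, that is 25.5, 9.42, 7.36 and 5.58 on the linear scale. Only replicate 1 of CLP_RAGhigh was above the median of all probe sets. The difference was 1.28 ± 0.48 (SE, n = 2 per group; limma adjusted p = 0.928), the highest of the 35 genes, and it was 0.34 with the offset of 32. Without CLP_RAGhigh replicate 1 it was 0.56, and its second probe set was negative, at -0.18. The partner chain Il2rb was at 0.08 ± 0.31.

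Il4ra, which forms the interleukin-4 receptor with the common gamma chain or with Il13ra1, had log2 intensities of 6.17 and 6.04 in CLP_RAGhigh and 7.34 and 6.73 in CLP_RAGlow. Both CLP_RAGhigh arrays were below both others. The difference was -0.93 ± 0.39 (SE, n = 2 per group), with an adjusted limma p of 0.935. Its 3 probe sets were at -0.93, -0.10 and 0.06, in order of brightness, and their average gave -0.32. Il21r, the neighbouring gene, was at -0.42 ± 0.34 with arrays of 6.69 and 6.51 against 7.02 and 7.03. Il15ra was at -0.40 ± 0.44, with overlapping arrays. Il7r, the receptor chain for interleukin-7 that the gene set leaves out, had log2 intensities of 11.81 and 10.65 in CLP_RAGhigh and 10.24 and 10.60 in CLP_RAGlow, a difference of 0.81 ± 0.39 (limma adjusted p = 0.971).

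The stretches before the start sites of Il2ra and Il17rb are shown because these genes had the most positive and the most negative difference of the 35. Each is the 250 bases before the start in RefSeq, build GRCm38.p6, Il2ra at chr2:11642542-11642791 on the plus strand and Il17rb at chr14:30008897-30009146 on the minus strand, printed 5′ to 3′ on the strand of the gene. Capitals mark matches to the E-box CANNTG, the binding motif of basic helix-loop-helix factors, and to CCCNNGGG, the core of the EBF1 motif.
Il2ra: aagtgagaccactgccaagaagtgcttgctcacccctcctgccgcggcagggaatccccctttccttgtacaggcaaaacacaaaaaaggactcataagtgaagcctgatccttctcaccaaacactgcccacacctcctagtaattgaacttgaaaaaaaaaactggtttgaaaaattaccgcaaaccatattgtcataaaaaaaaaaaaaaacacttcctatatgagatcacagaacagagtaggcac
Il17rb: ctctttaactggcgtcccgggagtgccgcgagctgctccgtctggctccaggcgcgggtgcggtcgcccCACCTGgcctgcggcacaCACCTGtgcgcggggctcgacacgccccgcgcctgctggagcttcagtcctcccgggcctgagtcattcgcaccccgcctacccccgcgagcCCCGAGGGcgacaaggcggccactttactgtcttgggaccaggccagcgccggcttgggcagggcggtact
The Il17rb window holds the E-box CACCTG at 2 places, which start 181 and 163 bases before the start site, and the Il2ra window has none. G and C make up 72% of the Il17rb window and 42.4% of the Il2ra window, against a median of 52.4% over 32851 windows. It also holds the EBF1 core CCCGAGGG, which starts 71 bases before the start site and overlaps neither E-box. On either strand, the Il2ra window does not match CCCNNGGG, and neither window matches ATTTGCAT (the octamer) or TTCNNNGAA (the motif of STAT factors). Among all windows of this length 66.2% hold an E-box, 11.8% the EBF1 core, 1.6% the octamer and 7.02% the STAT motif. Windows were found for 28 of the 35 genes, 32 in all since some genes have several starts. Of these 32, 28 hold an E-box, 2 the EBF1 core (Il17rb and Il6ra), 1 the octamer (Il4ra) and 4 the STAT motif (Il12rb2, Il18r1, Il1r2 and Il31ra). All motifs were picked with expression values known. A longer form of the EBF1 motif was searched first and matched neither printed window, and the shorter core, which many more windows hold, was taken after that was seen. A match is a description of the letters and not evidence of a bound site.

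Among the class II receptor chains and the interleukin-3 and interleukin-5 receptors, 0 genes were under a limma p of 0.05 before adjustment. Of 6 class II genes, 4 were dim in both groups, and Il10rb, the chain shared by the receptors for interleukin-10 and interleukin-22, was bright. Il10rb had log2 intensities of 8.74 and 8.26 in CLP_RAGhigh and 8.78 and 8.80 in CLP_RAGlow, a difference of -0.29 ± 0.31 (SE, n = 2 per group). Il10ra, the chain that binds interleukin-10, varied within groups, at 7.23 and 5.50 in CLP_RAGhigh and 5.08 and 6.19 in CLP_RAGlow. Its difference of 0.73 ± 0.69 was smaller than the gap between the replicates of either group. Il3ra was at -0.21 ± 0.32 and Il5ra at 0.10 ± 0.27, both with overlapping arrays. Csf2rb, a beta chain with which they signal, was at -0.13 ± 0.42. Csf2rb2, a second beta chain for interleukin-3 in the mouse, was at 0.75 ± 0.48, with overlapping arrays.

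**Figure D4:**
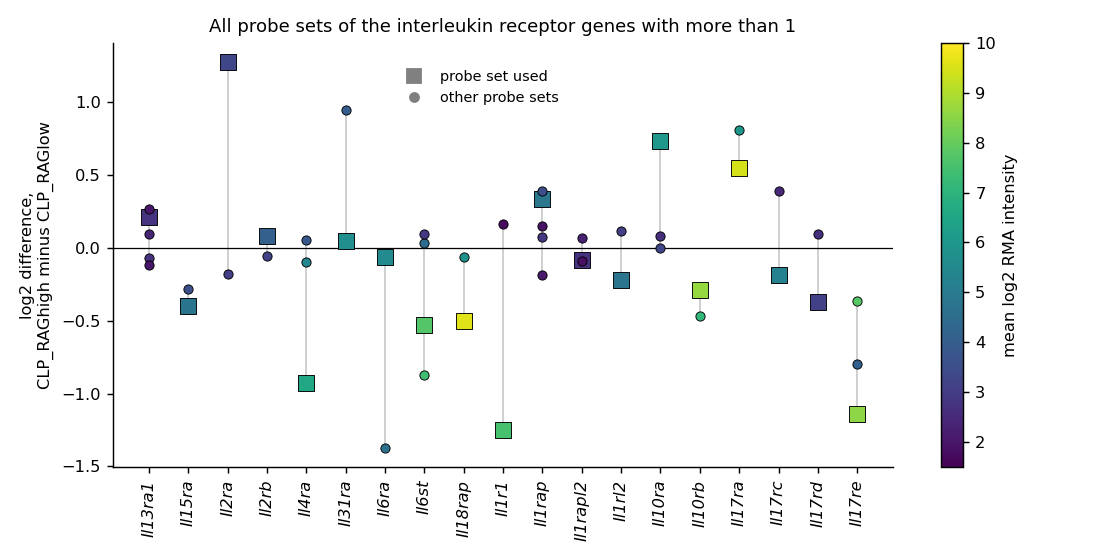
Log2 difference (vertical axis, CLP_RAGhigh minus CLP_RAGlow) of every probe set of the 19 interleukin receptor genes with more than 1 probe set. Squares are the brightest probe sets, which were used, circles the others, and colour gives the mean log2 RMA intensity. For Il2ra, Il4ra and Il1r1 the other probe sets lie near 0 or on the other side of it, while all probe sets of Il17re and Il17ra lie on the same side.

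Of the 35 genes, 19 had more than 1 probe set. All probe sets of a gene went in the same direction for 8 of them (Il10ra, Il10rb, Il15ra, Il17ra, Il17re, Il18rap, Il31ra and Il6ra) and in both directions for 11.

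Several of the genes are neighbours on their chromosomes. In the RefSeq order of protein-coding genes, 15 of the 35 form 8 pairs of direct neighbours. Of these pairs, 3 differed in the same direction, Il4ra with Il21r, Il17re with Il17rc, and Il1r1 with Il1rl2. The other 5 differed in opposite directions, among them Il1r2 with Il1r1 and Il2ra with Il15ra. All interleukin-1 and interleukin-18 receptor genes in these pairs lie on chromosome 1.

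**Figure D5:**
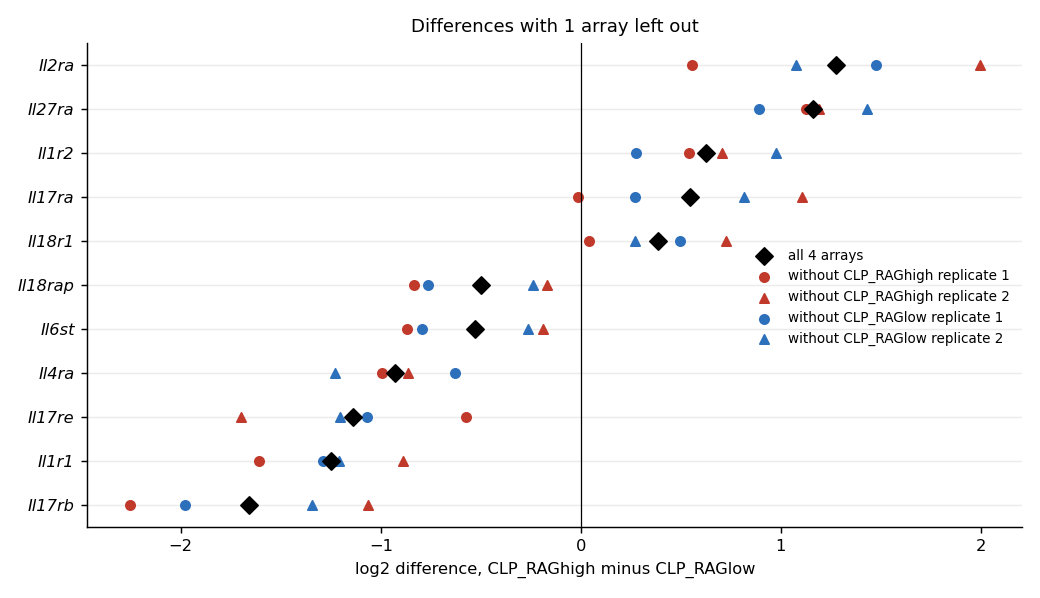
Log2 difference (horizontal axis, CLP_RAGhigh minus CLP_RAGlow) of the 11 genes named by the rule for values on each array, over all 4 arrays (black diamonds) and with 1 array left out (red and blue marks). Il27ra, Il1r1, Il17rb, Il17re, Il4ra, Il2ra and Il1r2 keep their direction in each, and Il17ra is at -0.01 without CLP_RAGhigh replicate 1.

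The genes that act before and after these receptors were counted from lists. Over all genes, 50.6% were higher by mean in CLP_RAGhigh, and arrays were separate for 15.4% above and 15.8% below. Limma p before adjustment was under 0.05 for 2.35% of all genes above and 2.94% below. By mean, 16 of 33 measured ligand genes were higher in CLP_RAGhigh and 17 lower, with arrays separate for 6 above and 5 below, and 22 were dim in both groups. Before adjustment, limma p was under 0.05 for 0 above and 2 below, Ebi3 and the dim Il13 (-0.38 ± 0.15). Of 26 measured genes of JAK-STAT signalling, 17 were higher by mean and 9 lower, with arrays separate for 8 above and 3 below. Socs2, a feedback inhibitor of cytokine signalling, was the 1 gene of the 26 under 0.05 before adjustment, at 6.47 and 6.17 in CLP_RAGhigh and 7.97 and 7.16 in CLP_RAGlow. Its difference was -1.24 ± 0.42 (SE, n = 2 per group), and 5 of its 6 probe sets were negative.

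Of 11 measured partner chains and regulators outside the gene set, 8 were higher by mean and 3 lower, and Sigirr was the 1 gene under 0.05 before adjustment. Sigirr, an inhibitory receptor of the interleukin-1 family, had log2 intensities of 9.42 and 9.96 in CLP_RAGhigh and 8.37 and 8.48 in CLP_RAGlow, a difference of 1.27 ± 0.30 (SE, n = 2 per group; limma adjusted p = 0.666). Il1rn, the secreted antagonist of interleukin-1, was at 0.05 ± 0.30. Irak3, an inhibitory member of the IRAK kinase family, was at 6.36 and 5.85 against 4.22 and 4.96, a difference of 1.51 ± 0.41 (limma adjusted p = 0.769). Sigirr and Irak3 had separate arrays. The second, dim probe set of Irak3 was at -0.08. Ikbkb, a kinase that activates NF-kB in the same pathway, was at 1.28 ± 0.31 (limma adjusted p = 0.703), and its other 4, dimmer probe sets lay between -0.16 and 0.12. Of the 17 measured genes of MyD88 and Act1 signalling, 9 were higher by mean and 8 lower. Arrays were separate for 5 above and 0 below, against 15.4% and 15.8% of all genes. Irak3 and Ikbkb, both above, were the 2 with a limma p under 0.05 before adjustment, against 2.35% of all genes. Adjusted over all genes with limma, 0 genes of these lists passed.

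Of 54 measured markers of other cells, 24 had both group means under the median of all probe sets. These were 2 of 6 T-cell, 5 of 8 natural killer and innate lymphoid, 3 of 6 B-cell, 6 of 9 mast cell, basophil and eosinophil, 1 of 11 neutrophil and monocyte, 2 of 6 erythroid and megakaryocyte and 5 of 8 stromal markers. The summed linear intensity of the natural killer and innate lymphoid list was 297 and 234 in CLP_RAGhigh and 161 and 206 in CLP_RAGlow. Most of it came from Klrd1, and the other 7 genes summed to 80.9 and 83.5 against 74.7 and 68.7. The B-cell list summed to 378 and 274 against 167 and 203, of which Cd79b gave 289 and 214 against 114 and 149, and the other 5 genes 89.2 and 59.7 against 52.4 and 54.6. The sums of these 2 lists were higher on both CLP_RAGhigh arrays with and without that gene, while their genes went both ways. In the natural killer and innate lymphoid list 6 genes were higher by mean and 2 lower, with arrays separate for 3 above and 1 below. In the B-cell list 4 were higher and 2 lower, with arrays separate for 3 above and 2 below. Of all genes, 15.4% were separate above and 15.8% below. The erythroid and megakaryocyte list was higher as well, at 229 and 178 against 162 and 119, and the stromal list lower, at 447 and 538 against 547 and 615. Both overlapped without their leading gene, at 106 and 112 against 125 and 106 without Klf1, and at 80.3 and 103 against 84.5 and 107 without Pdgfrb. The T-cell list, at 119 and 143 against 110 and 120, overlapped. So did the mast cell, basophil and eosinophil list, whose cells can carry Il17rb and Il5ra, at 112 and 99.3 against 76.7 and 117. Within it, Mcpt8 was lower on both CLP_RAGhigh arrays, and Prg2 was at 53.6 on CLP_RAGhigh replicate 1 and at 4.64 to 5.03 on the others. Sums without the leading gene were added after the data were seen. The part of these cells in the results was not tested.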

How the data were processed

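RNA from 2000 sorted cells per sample was amplified and hybridised to Affymetrix MOE430_2 arrays, and the authors deposited 1 RMA intensity per probe set, per the labels' series design. These intensities ran from 2.35 to 19893, so they are linear, and they were converted to log2. Software and filters are not named in the sources used here. RMA normalizes between arrays and does not separate absent from weakly expressed genes. Of 45037 probe sets without controls, 34945 were annotated to 1 gene, 932 to several and 9160 to none (both left out). Gene IDs of 34741 were found in RefSeq, and 0 symbols changed. Then the brightest by mean log2 was kept for each of 18193 genes. All genes were fitted with limma 3.58.1 in R 4.3.3 (lmFit, and eBayes with an intensity trend). Tests were two-sided, p-values were adjusted by Benjamini-Hochberg over all genes, and 0.05 was the threshold. Residual degrees of freedom were 2 and prior ones 3.75. The script was tested on simulated data with planted changes larger than any difference of the interleukin receptor genes, in genes above the median only. It was not tested for smaller changes or dim genes. Dim genes have a group mean under 3.88, the median log2 value.

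The values on each array are given for genes with an unadjusted p under 0.05, for genes with separate arrays, a difference of at least 0.5 and a group mean above that median, and for 4 bright genes that met neither. These 4 were picked from the 5 such genes, and the array values of Il10rb (the fifth), Il21r, Il10ra and Il7r were added, after their values were seen. Lists of families, ligands, signalling genes and markers are summarised by counts, since no set test was made. The genes and lists were chosen with earlier results of these data known. Protein features were planned and not analysed here. Promoters and gene order come from RefSeq, build GRCm38.p6. Alternatives covered probe sets, offset, filter, scaling, the eBayes trend, a replicate block and leaving out each array. Figures were drawn with matplotlib 3.10.9.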

Additional observations from a re-analysis of the deposited data

How the results depend on the processing

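With limma, 0 of the 35 genes passed at an adjusted p under 0.05 in any of the 12 alternatives. Over all genes 2 passed with probe sets averaged, 1 with only genes above the median, 3 with quantile normalization and 7 with the replicate number as a block. Deviations of same-numbered arrays had a correlation of -0.0248, and those of crossed arrays 0.0248. With 2 arrays a group these are 1 value with its sign changed, so they cannot show whether the numbers pair the samples. The block left the 2 higher and 3 lower genes with an unadjusted limma p under 0.05. With only genes above the median, 22 of the 35 genes were fitted, and Il2ra was left out. The count of higher genes at an unadjusted limma p under 0.05 was 1 in that setting. It was also 1 with probe sets averaged, 1 with the offset of 32 and 1 without the eBayes trend. When 1 array was left out it was 0 to 2, and that of lower genes 1 to 2. With only genes above the median, arrays were separate above for 2 of the 22 genes and below for 7. When 1 array was left out, genes with separate arrays above numbered 9 to 13 and those below 13 to 16, since fewer arrays separate more easily. A lone array was then assumed to vary like the other group. The shares of all genes with separate arrays in these settings were not counted. The median difference was -0.016 with the offset, -0.20 with only genes above the median, and -0.24 to -0.013 when 1 array was left out. Of the 11 genes given by array under the rule (without Il10rb, Il21r, Il10ra and Il7r), Il17ra changed direction, with a range of -0.014 (without CLP_RAGhigh replicate 1) to 1.105 when 1 array was left out, and the cause was not tested. The other 10 kept theirs.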

Other observations

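Some probe sets outside the comparison differed more than the one used. They are named after their values were seen. The second probe set of Il6ra, which encodes the ligand-binding chain of the interleukin-6 receptor, had log2 intensities of 4.02 and 4.04 in CLP_RAGhigh and 5.51 and 5.30 in CLP_RAGlow, a difference of -1.37, while the brighter one was at -0.07. The second probe set of Il6st, its signalling partner, was at 6.72 and 7.21 against 7.39 and 8.28, a difference of -0.87 with separate arrays. For Il31ra the second probe set was at 4.36 and 4.55 in CLP_RAGhigh and 3.86 and 3.14 in CLP_RAGlow, a difference of 0.95, while the one used was at 0.05. Lifr, the receptor chain for leukaemia inhibitory factor, was at 2.79 on CLP_RAGhigh replicate 2 and at 6.11, 5.65 and 6.0 on the other arrays.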
